A study of Mus musculus with 9 samples.

Results

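Oxidative phosphorylation is carried out by 5 protein complexes of the inner mitochondrial membrane. Complexes I to IV pass electrons from NADH or succinate to oxygen. Complexes I, III and IV pump protons, and complex V uses the proton gradient to make ATP. Complex II is encoded by nuclear genes alone, whereas the other complexes combine nuclear subunits with subunits encoded by mitochondrial DNA. The mitochondrial genes are transcribed as long RNAs from both strands, which are then cut into mRNAs, so their levels need not follow those of nuclear subunits. In the small intestine, absorptive enterocytes are known for many mitochondria, and Paneth cells for glycolysis.

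The genes described here are all symbols of the deposited tables that begin with mt-, Nduf, Sdha, Sdhb, Sdhc, Sdhd, Uqcr, Cox4, Cox5, Cox6, Cox7, Cox8 or Atp5, without 14 symbols marked as pseudogenes by "-ps". The rule gave 115 of 35013 symbols, 13 of them mitochondrially encoded and 102 nuclear. The nuclear members were 7 core subunits, 33 accessory subunits and 8 assembly factors of complex I, 8 genes of complex II with its assembly factors, 8 of complex III, 21 of complex IV (Ndufa4 and Ndufa4l2 included) and 17 of complex V. The annotation lists 4 of the nuclear members as pseudogenes (Cox6c2, Ndufa11b, Ndufb4c and Ndufs6b). A mean normalized count of at least 10 over 6 libraries was reached by all 13 mitochondrial and 93 nuclear members in each table, and 9 nuclear members were below it in both.

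RNA-Seq was performed on 3 epithelial populations from the small intestine of NFKO mice at 4 to 6 weeks of age, with 3 replicates each and 9 libraries in all. NFKO mice are Neurog3Cre-FoxO1 f/f mice with a Rosa26tdtomato reporter. Cre from Neurog3, a transcription factor of secretory progenitors, deletes FoxO1 and switches on Tomato in the progenitor and its descendants. Tomatoneg cells come from mice with the same alleles but had not recombined the reporter, so the Tomato+ populations differ from them in descent and in FoxO1 together, and these cannot be told apart. Tomato+ cells were divided by the surface protein CD24 into CD24negTomato+ and CD24+Tomato+ cells. One table holds CD24negTomato+ and Tomatoneg libraries and the other CD24+Tomato+ and the same Tomatoneg libraries. The values are normalized counts, scaled in each table separately, so each comparison was made within its table and both comparisons share their controls. The labels call the replicates biological. Neither the labels nor the methods say how many mice stand behind a library, so p-values rest on the spread between these samples, which may be partly technical. The test used, limma, also draws each gene's spread toward that of genes at a similar level, so an SE does not measure a gene's own values alone.

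Summed normalized counts were 22594850 to 30332463 per library, and the depth estimated from the most frequent low value was 19158348 to 39240059 reads. The normalized count of Foxo1 was 274 to 467 in CD24negTomato+ against 424 to 695 in Tomatoneg libraries, and 193 to 319 in CD24+Tomato+ against 444 to 748 in Tomatoneg libraries. Its log2 fold change was -0.56 (SE 0.33, limma adjusted p = 0.43) and -1.27 (SE 0.36, limma adjusted p = 0.058). For CD24+Tomato+ libraries limma gave an adjusted p of 0.022 once the replicate number was a block. Tomatoneg replicate 1 stood apart: Pearson's r with the other Tomatoneg libraries was 0.818 to 0.864, against 0.924 to 0.927 between replicates 2 and 3. It had 13025 genes above 0, against 15644 and 16008, and the smallest estimated depth. Enterocyte markers summed to 678645 in it, against 187775 and 188900 in Tomatoneg replicates 2 and 3 of the same table. This was not particular to Tomatoneg cells, as replicate 1 had the highest sum in each population. The sums of replicates 1, 2 and 3 were 632988, 254620 and 288142 in CD24negTomato+ and 113619, 37129 and 29600 in CD24+Tomato+. Values without Tomatoneg replicate 1 are given for results that rest on it, and these fits keep replicate 1 of the Tomato+ population.

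Before the mitochondrial genes are compared, the identity of their reads has to be considered. Chromosome 1 of the mouse carries a stretch of nuclear DNA copied from the mitochondrial genome (GRCm38, chr1:24611535-24616197, minus strand), in which 7 unprocessed pseudogenes match mitochondrial protein genes at 99.7% to 100% identity. A read of 31 bases could not be assigned to the gene rather than to a copy over 100% of mt-Co2, 99.9% of mt-Co3, 99.5% of mt-Atp6, 98.9% of mt-Nd4l, 98.1% of mt-Nd3, 63.9% of mt-Co1 and 62.8% of mt-Nd4. No such sequence was found for mt-Nd1. In mt-Atp8 it was found only where the gene overlaps mt-Atp6 (7.5% of its 31-base sequences), a stretch that the mt-Atp6 copy Gm10925 also holds. The first 60 bases of mt-Atp6 (chrM:7927-7986, plus strand) and of its copy Gm10925 (chr1:24614592-24614651, minus strand) are shown because they do not differ at any base:

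mt-Atp6: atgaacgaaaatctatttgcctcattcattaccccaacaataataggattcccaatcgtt

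Gm10925: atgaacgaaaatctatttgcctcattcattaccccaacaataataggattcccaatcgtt

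Elsewhere a single base sets a copy apart. The start of mt-Nd3 (chrM:9459-9491) and of its copy Gm28438 (chr1:24613087-24613119, minus strand) differ by T3C, and a stretch of mt-Co1 (chrM:6390-6423) and of Gm29216 (chr1:24616155-24616188, minus strand) by A1066T. In these tokens the base of the mitochondrial gene comes first, positions are counted from 1 at the first base of that gene, and the capital marks the base that differs:

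mt-Nd3: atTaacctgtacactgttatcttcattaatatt

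Gm28438: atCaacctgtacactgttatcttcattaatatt

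mt-Co1: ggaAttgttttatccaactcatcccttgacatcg

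Gm29216: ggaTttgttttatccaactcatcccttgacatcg

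The genes for both complex V subunits in mitochondrial DNA also overlap each other. The start of mt-Atp6 lies within mt-Atp8, and reads over the shared 43 bases (chrM:7927-7969), shown with the mt-Atp6 start codon in capitals, cannot be divided between them:

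overlap of mt-Atp8 and mt-Atp6: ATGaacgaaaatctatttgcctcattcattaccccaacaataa

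The division of reads between gene and copy varied from library to library. Of the summed value of mt-Atp6 and its copies, the copies held 2.5%, 61.3% and 77.1% in Tomatoneg replicates 1, 2 and 3, and 44.0%, 51.1% and 24.9% in CD24negTomato+ replicates 1, 2 and 3. The symbol mt-Atp6 alone was 210983, 61499 and 25692 in the Tomatoneg libraries, an 8.21-fold range, whereas the sum was 216336, 158962 and 112365, a 1.93-fold range. The copies of mt-Co2 held 58.7%, 6.7% and 21.4% in CD24negTomato+ replicates 1, 2 and 3, and the coefficient of variation of mt-Co2 went from 45.1% to 23.5% once they were added. Adding copies did not narrow every range: in Tomatoneg libraries mt-Co3 went from 1.37-fold alone to 1.62-fold with copies. Each mitochondrial gene is therefore given alone, as deposited, and with its copies where these change the value.

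**Figure D1:**
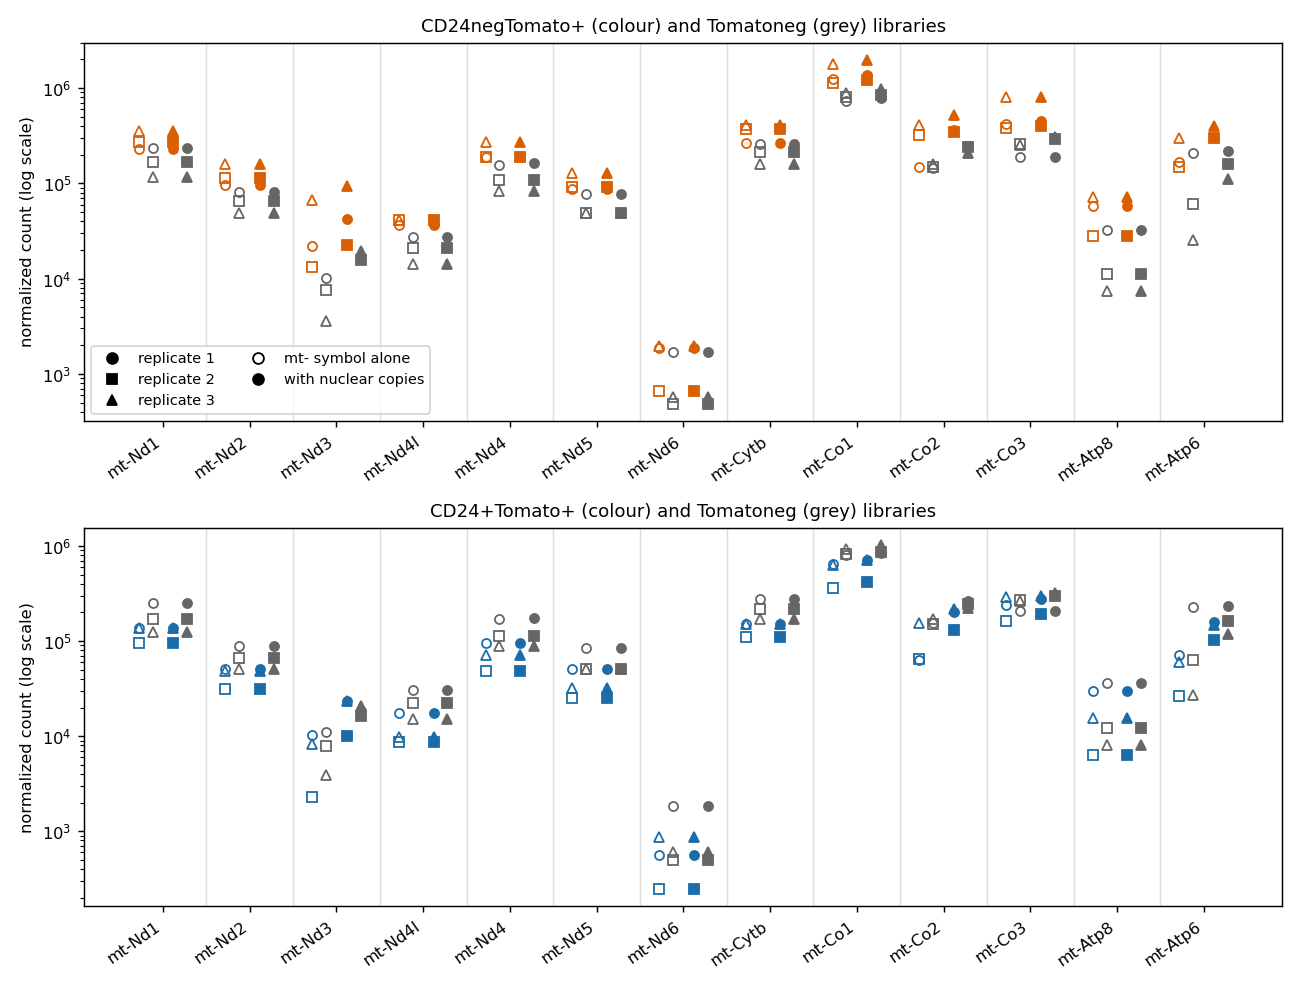
Normalized counts (log scale) of the 13 mitochondrially encoded genes in each library, with CD24negTomato+ (upper panel) or CD24+Tomato+ libraries (lower panel) in colour and Tomatoneg libraries in grey. Open symbols are the mt- symbol alone and filled symbols its sum with nuclear copies, and marker shapes are replicates. The open Tomatoneg symbols of mt-Atp6 spread over 8.21-fold in the upper panel and the filled ones over 1.93-fold.

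In CD24negTomato+ libraries the mitochondrial genes had higher values than in Tomatoneg libraries, but none passed the test. The log2 fold change was positive for 13 of 13 genes, from 0.74 to 2.06 with a median of 0.91, where the median of all 13420 tested genes was 0.08. In limma on log2(normalized count + 1), 0 of 13 had an adjusted p under 0.05. At an unadjusted p under 0.05, 5 of 13 were higher, against 1377 of all 13420 tested genes. Over all tested genes 0.999% were called higher and 0.320% lower. All 3 CD24negTomato+ libraries lay above all 3 Tomatoneg libraries for 8 of 13 genes, or for 10 of 13 with copies added, against 14.7% of all tested genes. These mRNAs are cut from shared transcripts and measured in the same libraries, so the 13 genes are not independent observations.

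mt-Co1, the catalytic subunit of complex IV, had the highest values. It was 1239392, 1119370 and 1791890 in CD24negTomato+ and 740132, 803799 and 892808 in Tomatoneg libraries. The groups did not overlap, and the log2 fold change was 0.74 (SE 0.65, adjusted p = 0.59), or 0.77 with copies. This SE is moderated by limma and is not the spread of these values alone, whose coefficients of variation were 25.9% and 9.44%. mt-Co3, another core subunit of complex IV, was 420208, 382851 and 797908 against 190084, 261015 and 250755, also without overlap (log2 fold change 1.12, SE 0.51, adjusted p = 0.32). mt-Co2, the subunit that accepts electrons from cytochrome c, was 149299, 325537 and 409954 against 144609, 147940 and 160452, with replicate 1 of CD24negTomato+ inside the Tomatoneg range. With copies it was 361261, 349012 and 521869 against 244175, 239235 and 209643, and the groups no longer overlapped (log2 fold change 0.81, SE 0.43, adjusted p = 0.37).

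The complex I genes followed the same direction. mt-Nd2, for which copies add next to nothing, was 96789, 113562 and 159974 against 82199, 65462 and 48840 (log2 fold change 0.91, SE 0.37, adjusted p = 0.26). mt-Nd4l was 36581, 41090 and 41237 against 27565, 21202 and 14251 and had the smallest adjusted p of complex I apart from mt-Nd3 (log2 fold change 0.97, SE 0.31, adjusted p = 0.17, and 0.058 with the replicate block). Neither gene overlapped between the groups. The log2 fold change was 0.93 for mt-Nd4, 0.82 for mt-Nd5 and 0.75 for mt-Nd1, and mt-Nd1 overlapped, with 228883, 269404 and 352830 against 235303, 166994 and 117173. mt-Nd3 had a log2 fold change of 2.06 alone (SE 0.62, adjusted p = 0.15) and of 1.38 with copies (SE 0.48, adjusted p = 0.21). mt-Nd6, the gene on the opposite strand, had values of 484 to 1975 and a log2 fold change of 0.79 (SE 0.59). Strand use in the counting is not given in the sources used here, so reads of mt-Nd6 and of the transcript opposite to it may not be separable.

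mt-Cytb, the cytochrome b of complex III, was 267581, 371383 and 411369 against 258162, 211808 and 161776 (log2 fold change 0.74, SE 0.45, adjusted p = 0.44). Of the complex V genes, mt-Atp8 was 58143, 27970 and 72793 against 32274, 11290 and 7377, which overlapped (log2 fold change 1.82, SE 0.59, adjusted p = 0.18). mt-Atp6 had a log2 fold change of 1.49 alone (SE 0.75, adjusted p = 0.36) and of 1.07 with copies (SE 0.43, adjusted p = 0.26). With the replicate block 0 of the 13 genes were called, with or without copies, against 4.34% of all tested genes called higher. Between libraries of the same number the median log2 difference over the 13 genes was 0.24, 0.81 and 1.67 for replicates 1, 2 and 3, so its size differed between replicates. Without Tomatoneg replicate 1, mt-Atp6, mt-Atp8 and mt-Nd4l were called higher, or mt-Atp8 and mt-Nd4l with copies added, with adjusted p of 0.028 to 0.046, and the median log2 fold change of the 13 genes was 1.09, with or without copies. In that fit 1059 genes were called in all.

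In CD24+Tomato+ libraries the mitochondrial genes had lower values than in Tomatoneg libraries, and again none passed the test. The log2 fold change was negative for 13 of 13 genes, from -0.92 to -0.10 with a median of -0.67, where the median of all 13874 tested genes was 0.16. By limma 0 of 13 were called (1 had an unadjusted p under 0.05), against 8.02% of all tested genes called higher and 4.89% lower. With the replicate block 2 of 13 were called lower, against 9.95% of all tested genes. All 3 CD24+Tomato+ libraries lay below all 3 Tomatoneg libraries for 3 of 13 genes, or for 4 of 13 with copies, against 14.4% of all tested genes. The median was -0.43 without CD24+Tomato+ replicate 2 and -0.47 without Tomatoneg replicate 1. With copies it was -0.61, and -0.35 and -0.38 without the same libraries.

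The genes lower with the block were mt-Nd4l and mt-Nd5, both of complex I. mt-Nd4l was 17535, 8662 and 9910 in CD24+Tomato+ and 30237, 22091 and 15226 in Tomatoneg libraries (log2 fold change -0.92, SE 0.37, adjusted p = 0.16, and 0.017 with the block). mt-Nd5 was 50869, 25436 and 32257 against 83694, 50269 and 51006 (log2 fold change -0.79, SE 0.40, adjusted p = 0.25, and 0.028 with the block). Each CD24+Tomato+ library of both genes was below the Tomatoneg library of the same number, although the groups overlapped by replicate 1 of CD24+Tomato+. Between libraries of the same number the median log2 difference over the 13 genes was -0.79, -1.11 and -0.10 for replicates 1, 2 and 3, and 6 of 13 genes had a higher value in CD24+Tomato+ replicate 3 than in Tomatoneg replicate 3.

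The genes without overlap were mt-Co1, mt-Cytb and mt-Nd2. mt-Co1 was 640604, 360702 and 624359 against 797851, 823081 and 937454 (log2 fold change -0.70, SE 0.96, adjusted p = 0.69). Here too the SE is the moderated one, and the coefficients of variation of mt-Co1 were 29.0% and 8.72%. mt-Cytb was 152328, 110975 and 150723 against 278529, 217072 and 170008 (log2 fold change -0.67, SE 0.53, adjusted p = 0.46). mt-Nd2 missed overlap by little, since its highest CD24+Tomato+ value was 51336 and its lowest Tomatoneg value 51343 (log2 fold change -0.66, SE 0.39, adjusted p = 0.31). mt-Co2 with copies also lay below, at 131233 to 218017 against 220860 to 264096 (log2 fold change -0.44, SE 0.55). The remaining genes overlapped, with log2 fold changes of -0.78 for mt-Nd4, -0.74 for mt-Nd6, -0.88 for mt-Co2 alone, -0.59 for mt-Atp6 (-0.30 with copies), -0.52 for mt-Nd1, -0.25 for mt-Nd3 (-0.05 with copies), -0.11 for mt-Co3 and -0.10 for mt-Atp8.

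Per kilobase of transcript, copies included, the order of the mitochondrial genes was similar at its ends in every library. For genes that overlap, such as mt-Atp8 and mt-Atp6, it also depends on how shared reads were divided. mt-Co1 ranked 1 of 13, mt-Nd5 12 and mt-Nd6 13 in each of the 9 libraries. The libraries were made from poly-A RNA, so this is the order of captured RNA, and the capture of each mRNA was not measured. Levels per kilobase averaged 981032 for mt-Co1 and 2909 for mt-Nd6 in CD24negTomato+ libraries. Of the mitochondrial total, mt-Co1 made up 33.8% to 46.2% in Tomatoneg libraries, 35.2% to 38.2% in CD24+Tomato+ libraries and 35.6% to 39.1% in CD24negTomato+ libraries. In the middle the order shifted between replicates, as mt-Atp8 ranked 5 to 9 in CD24negTomato+ and 7 to 11 in Tomatoneg libraries.

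The share of a library that mitochondrial and nuclear members take does not depend on a library's size factor, and can be set side by side for the 3 populations. With copies, mitochondrial members made up 12.3%, 12.3% and 17.3% of the normalized counts in CD24negTomato+ (14.0% ± 2.9, SD, n = 3), 8.45%, 4.29% and 6.47% in CD24+Tomato+ (6.40% ± 2.08, SD, n = 3) and 9.16%, 9.40% and 8.05% in Tomatoneg libraries (8.87% ± 0.72, SD, n = 3). The CD24negTomato+ libraries lay above all others, and the CD24+Tomato+ and Tomatoneg libraries overlapped. Nuclear members made up 1.68%, 1.72% and 2.04% in CD24negTomato+, 1.49%, 1.60% and 1.79% in CD24+Tomato+ and 2.02%, 2.60% and 2.90% in Tomatoneg libraries. Here the CD24+Tomato+ libraries lay below all Tomatoneg libraries, and CD24negTomato+ replicate 3 lay just within the Tomatoneg range. The ratio of mitochondrial to nuclear members was 2.78 to 4.53 in Tomatoneg libraries, 2.68 to 5.68 in CD24+Tomato+ libraries and 7.16 to 8.48 in CD24negTomato+ libraries. These sums are given without a test. Bulk values cannot tell fewer cells of a type from less RNA per cell.

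**Figure D2:**
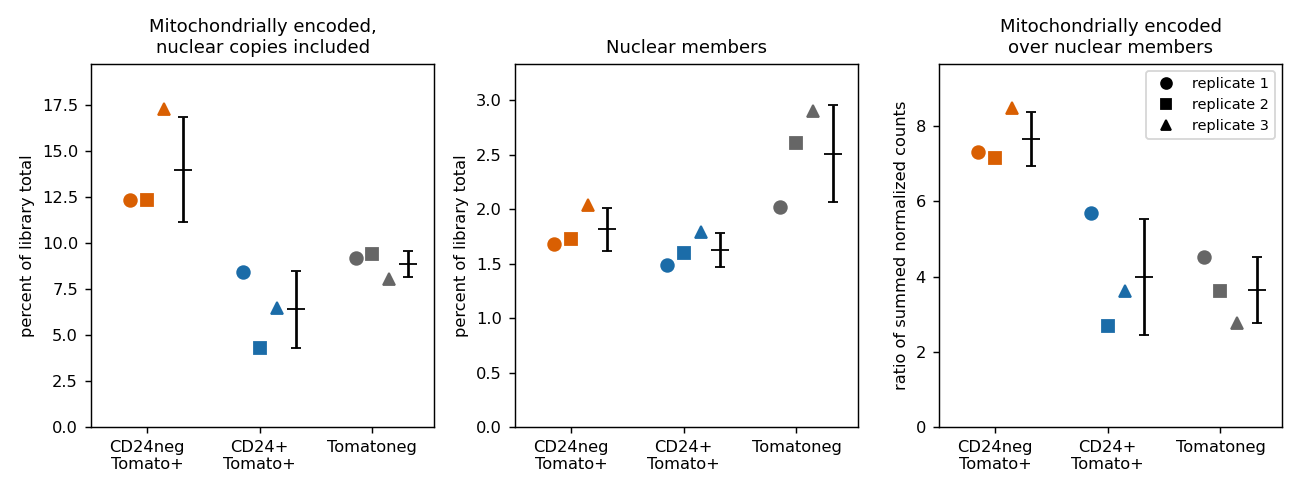
Share of each library's normalized counts in mitochondrially encoded members with nuclear copies (left) and in nuclear members (middle), and the ratio of these sums (right). Each symbol is a library and the bars are the mean and SD of 3. The ratio was 7.16 to 8.48 in CD24negTomato+, above the highest CD24+Tomato+ library at 5.68 and the highest Tomatoneg library at 4.53.

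Other transcripts that take a large part of the libraries moved as well. The 7 goblet cell markers made up 0.52% to 0.90% of Tomatoneg libraries, 3.60% to 4.70% of CD24+Tomato+ libraries and 6.94% to 10.2% of CD24negTomato+ libraries, and all 7 were called higher in both Tomato+ populations. The 7 Paneth cell markers made up 2.16% to 7.69% of CD24+Tomato+ libraries (7 of 7 higher) but 0.07% to 0.17% of CD24negTomato+ libraries (0 of 7 called), against 0.15% to 0.63% in Tomatoneg libraries. Enteroendocrine markers were higher for 8 of 10 in CD24negTomato+ and 10 of 10 in CD24+Tomato+. Of 8 enterocyte markers, 5 were lower and 0 higher in CD24+Tomato+, where they summed to 29600 to 113619 against 191222 to 726684 in Tomatoneg libraries, and 0 were called in CD24negTomato+, where the sums overlapped at 254620 to 632988 against 187775 to 678645. Of 8 lymphocyte markers 7 were lower in CD24+Tomato+ (sums of 404 to 518 against 2987 to 10754) and 3 in CD24negTomato+ (567 to 1106 against 2787 to 10537). Tuft markers were higher for 4 of 5 in CD24+Tomato+ and lower for 1 of 4 tested in CD24negTomato+ (sums of 332 to 372 against 1044 to 1685). Il25 was listed at 0 in all 3 CD24negTomato+ libraries, and this was the only marker at 0 throughout a group. Stem markers were lower for 1 of 5 in CD24negTomato+ and called for 0 of 5 in CD24+Tomato+. In CD24negTomato+ all 5 lay below all Tomatoneg libraries, against 10.6% of all tested genes, with sums of 2353 to 4283 against 9824 to 27556. Cycling markers were lower for 1 of 4 in CD24negTomato+ (sums of 2509 to 4159 against 5901 to 8291) and called for 0 of 4 in CD24+Tomato+. Dissociation stress genes were called for 0 of 8 in CD24negTomato+ and higher for 2 of 8 in CD24+Tomato+. The 4 pan-epithelial markers were called in neither comparison. Their sums overlapped in the first (227887 to 264699 in CD24negTomato+ against 203966 to 284889 in Tomatoneg libraries) and were lower in the second, at 158451 to 183574 in CD24+Tomato+ against 209036 to 307826 in Tomatoneg libraries. These calls are without the replicate block. With the block, CD24negTomato+ had 10 enteroendocrine markers and 1 enterocyte marker higher. Lower there were 4 Paneth, 4 tuft, 3 stem, 6 lymphocyte and 2 cycling markers. In CD24+Tomato+ 8 enterocyte markers and 1 pan-epithelial marker were lower, and 1 stem, 1 cycling and 3 dissociation stress markers were higher. Of all tested genes 4.34% and 2.96% were higher and lower in CD24negTomato+, and 10.8% and 9.95% in CD24+Tomato+. The part of these cell types in the values of the oxidative phosphorylation genes was not tested.

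Of 93 tested nuclear members 6 were called lower in CD24+Tomato+ cells and 0 higher, where 4.89% of all tested genes were called lower and 8.02% higher. The log2 fold change was negative for 83 of 93, with a median of -0.49 where that of all tested genes was 0.16. All 3 CD24+Tomato+ libraries lay below all 3 Tomatoneg libraries for 34 members, against 14.4% of all tested genes. With the replicate block 32 members were called lower and 0 higher, against 9.95% of all tested genes. The called members were spread over the 5 complexes: Ndufb10, Sdha, Uqcrc2, Uqcrfs1, Cox7a1 and Atp5pb. When one CD24+Tomato+ library was left out 0 members were called lower, whichever it was (10, 12 and 27 at an unadjusted p under 0.05), and without Tomatoneg replicate 1, 2 or 3 there were 7, 4 and 3. Without the mean-variance trend 2 were called, Sdha and Uqcrc2. The share of all tested genes called in these fits is not given here, so a lower count need not be particular to the members.

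In CD24negTomato+ cells 0 of 93 nuclear members were called by limma. At an unadjusted p under 0.05, 3 of 93 were lower, against 915 of all 13420 tested genes. The log2 fold change was negative for 70 members, with a median of -0.21 where that of all tested genes was 0.08. All CD24negTomato+ libraries lay below all Tomatoneg libraries for 5 members and above them for 1, against 10.6% and 14.7% of all tested genes. With the replicate block 1 member, Ndufv1, was called lower, against 2.96% of all tested genes.

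**Figure D3:**
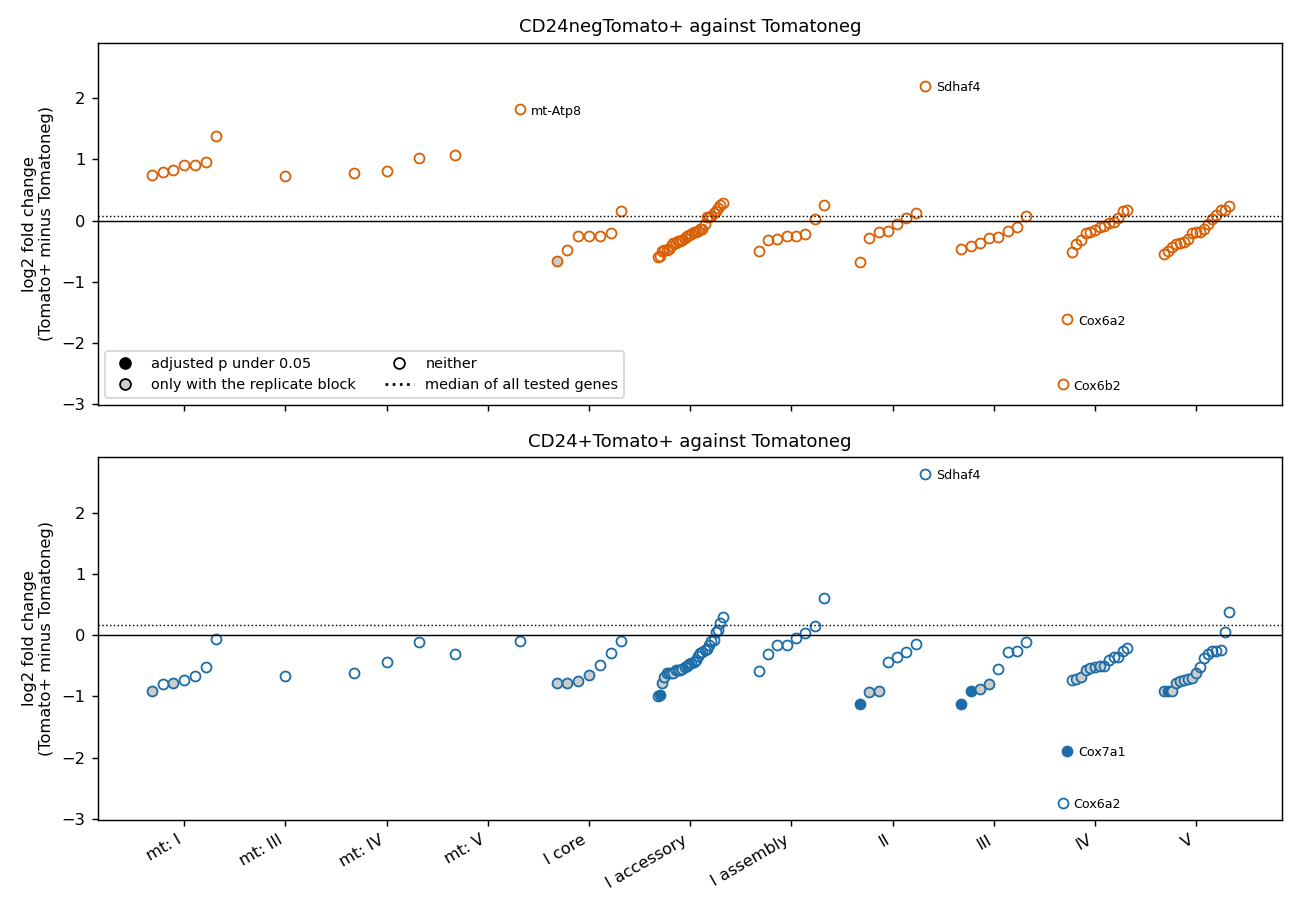
Log2 fold change of each tested member against Tomatoneg, with mitochondrially encoded genes (nuclear copies added) to the left and nuclear members by complex to the right. Filled symbols passed an adjusted p of 0.05, grey ones passed it with the replicate block alone, and the dotted line is the median of all tested genes. In CD24negTomato+ all 13 mitochondrial genes lie above 0 and 70 of 93 nuclear members below, whereas in CD24+Tomato+ both kinds lie mostly below.

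Complex I takes electrons from NADH. Of its 7 nuclear core subunits 0 were called in CD24+Tomato+ cells without the block and 4 with it, among them Ndufv1, and the median log2 fold change was -0.64. Ndufv1, the subunit that binds NADH, was 4031, 4393 and 5774 in CD24+Tomato+ and 9334, 6286 and 8946 in Tomatoneg libraries. The groups did not overlap, and the log2 fold change was -0.79 (SE 0.25, adjusted p = 0.083, and 0.024 with the block). In CD24negTomato+ it was 4904, 3858 and 6300 against 8727, 6187 and 8588 (log2 fold change -0.65, SE 0.27, adjusted p = 0.27, and 0.046 with the block), with replicate 3 within the Tomatoneg range. Ndufs1, an iron-sulfur subunit, had the highest core log2 fold change in CD24negTomato+ at 0.15 (SE 0.26, adjusted p = 0.79).

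Of the 30 accessory subunits tested, 1 was called lower in CD24+Tomato+ cells, and 6 with the block. Ndufb10 (GRCm38, chr17:24722060-24724478), a subunit of the membrane arm, was 2791, 3721 and 4252 in CD24+Tomato+ and 8686, 5461 and 7209 in Tomatoneg libraries. No library of one group fell within the other, and the log2 fold change was -0.98 (SE 0.26, adjusted p = 0.048). The call was the least stable of the 6, since it was kept in 6 of 12 fits on all libraries and gave an adjusted p of 0.072 by limma without Tomatoneg replicate 1. It was the accessory subunit with the largest fall in CD24negTomato+ too, where it was 3971, 4053 and 5240 against 8039, 5321 and 6849 and did not pass the test (log2 fold change -0.60, SE 0.24, adjusted p = 0.27). Ndufs5 had the lowest value of the accessory subunits in CD24+Tomato+ (log2 fold change -0.99, SE 0.38, adjusted p = 0.14), which rests on a Tomatoneg replicate 1 of 3821 against 1484 and 1520 in the other two. Without that library its log2 fold change was -0.54 (limma adjusted p = 0.12). Ndufa7 had the highest, at 0.30 (SE 0.30, adjusted p = 0.56). In CD24negTomato+ the highest was Ndufc1, at 0.29 (SE 0.47), with Tomatoneg values of 672, 1950 and 2444, and it was -0.28 without the first of these.

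The 8 assembly factors of complex I, which act in building the complex and are not part of it, were called in neither comparison. Their median log2 fold change in CD24+Tomato+ was -0.10, from -0.58 for Ndufaf2 to 0.60 for Ndufaf3 (SE 0.36 and 0.34, adjusted p = 0.35 and 0.29). In CD24negTomato+ it was -0.26, from -0.49 for Ndufaf2 to 0.26 for Ndufaf4. Whether core subunits and assembly factors differ was not tested.

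Complex II oxidises succinate and belongs to the tricarboxylic acid cycle as well. Of 8 genes, Sdha was called lower in CD24+Tomato+ cells, and Sdha, Sdhb and Sdhd with the block. Sdha (chr13:74322254-74350280), the flavoprotein that holds the active site, was 7517, 7098 and 7123 in CD24+Tomato+ libraries and 19885, 15529 and 12942 in Tomatoneg libraries. The CD24+Tomato+ replicates lay close together and well below, and the log2 fold change was -1.13 (SE 0.23, adjusted p = 0.023, and 0.0046 with the block). In CD24negTomato+ libraries it was 13662, 13197 and 12625 against 18262, 15014 and 12203, which overlapped (log2 fold change -0.19, SE 0.24, adjusted p = 0.72). The assembly factor Sdhaf4 had the highest log2 fold change in both tables, 2.64 (SE 2.01) and 2.20 (SE 1.96), because Tomatoneg replicate 1 was listed at 0 while the other two were at 238 and 268, or at 230 and 252. Without that library it was -0.023 in the CD24+Tomato+ and -0.44 in the CD24negTomato+ table. Sdhaf1 had the lowest value in CD24negTomato+ (log2 fold change -0.68, SE 0.37, adjusted p = 0.38).

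Complex III passes electrons from ubiquinol to cytochrome c. Of its 8 nuclear subunits 2 were called lower in CD24+Tomato+ cells and 4 with the block. Uqcrc2 (chr7:120635176-120659524), a core protein, was 6229, 6689 and 8109 in CD24+Tomato+ and 16291, 13854 and 15351 in Tomatoneg libraries. This was the smallest adjusted p of any nuclear member (log2 fold change -1.12, SE 0.21, adjusted p = 0.019), and Uqcrc2 was called in 12 of 12 fits on all libraries and in 3 of 6 with a library left out. In CD24negTomato+ it was 9635, 10702 and 11145 against 15161, 13573 and 14667, without overlap and without passing the test (log2 fold change -0.46, SE 0.21, adjusted p = 0.30). Uqcrfs1 (chr13:30540308-30545362), the Rieske iron-sulfur protein, was 4060, 3899 and 4523 against 6656, 7697 and 9157 (log2 fold change -0.90, SE 0.21, adjusted p = 0.031). Its CD24negTomato+ values of 7007, 5961 and 7698 lay within or near the Tomatoneg range of 6173 to 8719 (log2 fold change -0.11, SE 0.23, adjusted p = 0.84). Uqcrb, a small subunit, had the highest value in CD24negTomato+ at 0.07 (SE 0.27).

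Complex IV reduces oxygen, and several of its subunits come in isoforms used by particular tissues. Of 15 tested genes Cox7a1 was called lower in CD24+Tomato+ cells, and 6 were with the block. Cox7a1 (chr7:30184144-30186078), the heart and skeletal muscle form of subunit 7a, was 368, 325 and 229 in CD24+Tomato+ libraries and 2293, 661 and 923 in Tomatoneg libraries. The groups did not overlap although Tomatoneg replicate 1 was far above the other two, and the log2 fold change was -1.89 (SE 0.48, adjusted p = 0.042), or an adjusted p of 0.027 without that library. In CD24negTomato+ it was 1320, 752 and 949 against 2109, 640 and 872, which overlapped (log2 fold change -0.11, SE 0.46, adjusted p = 0.92). The widely expressed form Cox7a2 was 3646, 6245 and 6247 in CD24+Tomato+ against 5055, 7143 and 8365 in Tomatoneg libraries (log2 fold change -0.36, SE 0.30, adjusted p = 0.49). Per length, Cox7a1 made up 14.5%, 8.0% and 5.8% of both forms in CD24+Tomato+, 28.8%, 18.2% and 17.2% in CD24negTomato+ and 43.1%, 13.4% and 15.6% in Tomatoneg libraries. Replicate 1 was the highest in each population.

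The other tissue-restricted forms were low or below detection, which is 3 reads or a normalized count of 2.10 to 4.29 by library. Cox6b2, the testis form, was 3.55, 10.3 and 16.6 in CD24negTomato+ against 126, 34.5 and 51.5 in Tomatoneg libraries, without overlap (log2 fold change -2.68, SE 0.87, adjusted p = 0.18), and 28.9, 34.2 and 70.7 against 146, 38.05 and 58.4 in the CD24+Tomato+ comparison. Without Tomatoneg replicate 1 its log2 fold change was -2.16 in CD24negTomato+ (limma adjusted p = 0.12) and -0.19 in CD24+Tomato+ (limma adjusted p = 0.87). Cox6a2, the muscle form, was 0, 2.10 and 4.76 in CD24+Tomato+ against 57.1, 6.64 and 11.1 (log2 fold change -2.74, SE 1.22, adjusted p = 0.19), and 1.91 to 7.53 in CD24negTomato+. Its value rests on Tomatoneg replicate 1, without which its mean was under 10 and it was not tested. Their partners Cox6b1 and Cox6a1 were at 6265 to 16909 and 7463 to 14708 in all libraries. Cox8b and Cox8c were listed at 0 in every library, Cox7b2 reached at most 2.20, and Cox4i2 at most 5.74. Ndufa4l2, a form linked to low oxygen, was listed at 0 in Tomatoneg libraries, at 5.49, 1.68 and 1.67 in CD24negTomato+ and at 0.69, 5.79 and 0 in CD24+Tomato+ libraries. The log2 fold changes of the widely expressed partners in CD24+Tomato+ were -0.52 for Cox4i1, -0.50 for Cox6a1, -0.50 for Cox6b1, -0.57 for Cox7b, -0.26 for Cox8a and -0.36 for Ndufa4, with Cox6b1 and Cox7b called under the block (adjusted p = 0.049 for both). In CD24negTomato+ they were -0.38, -0.21, -0.02, 0.18, -0.18 and 0.04 in the same order, and none was called.

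Complex V makes ATP. Of its 17 genes 1 was called lower in CD24+Tomato+ cells and 9 with the block, and the median log2 fold change was -0.61. Atp5pb (GRCm38.p6, chr3:105942698-105959263), subunit b of the peripheral stalk, was 6413, 7891 and 9105 in CD24+Tomato+ and 14027, 15412 and 14147 in Tomatoneg libraries. The groups lay far apart, with a log2 fold change of -0.91 (SE 0.22, adjusted p = 0.038). In CD24negTomato+ it was 10898, 13322 and 11920 against 12976, 15010 and 13437, which overlapped (log2 fold change -0.20, SE 0.21, adjusted p = 0.67). Atp5o, the subunit that joins the stalk to the catalytic head, had the lowest value in CD24+Tomato+ (log2 fold change -0.92, SE 0.28, adjusted p = 0.075, and 0.017 with the block). Atp5e, the epsilon subunit, had the highest, at 0.38 (SE 0.45, adjusted p = 0.64). In CD24negTomato+ the values ran from -0.55 for Atp5g2, a form of the membrane ring subunit (SE 0.49), to 0.23 for Atp5l, a membrane subunit (SE 0.38).

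**Figure D4:**
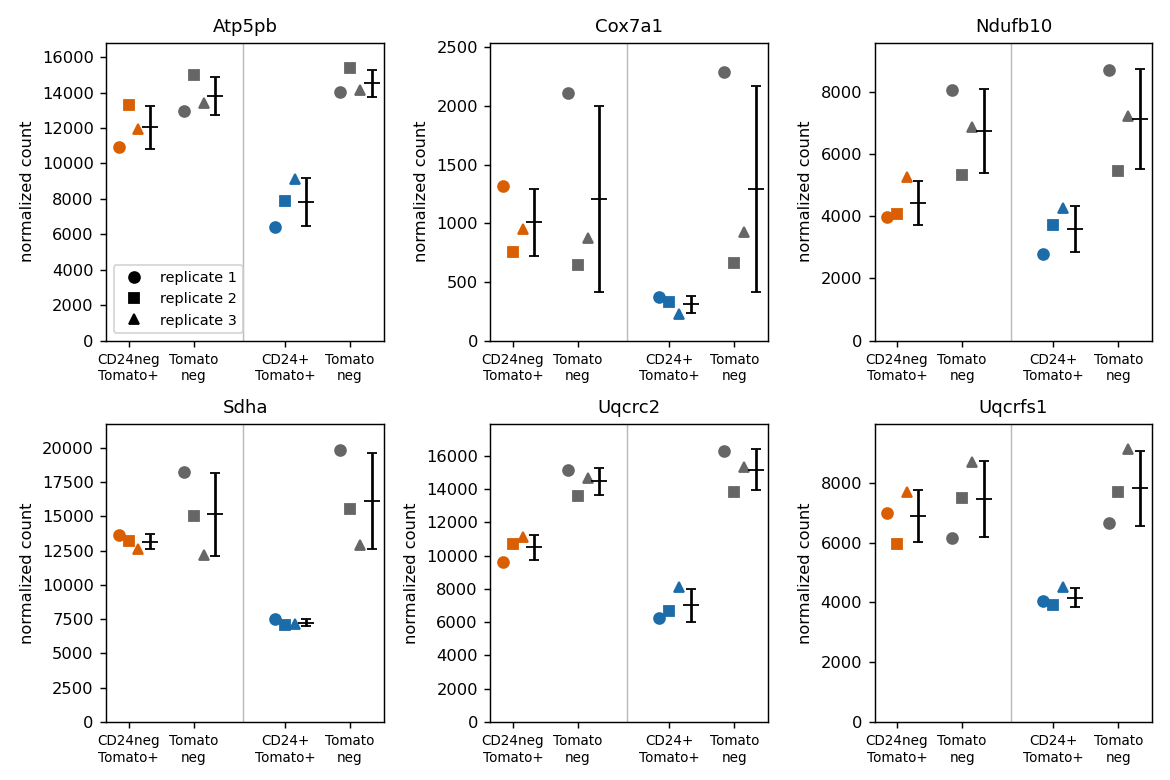
Normalized counts of the 6 nuclear members called lower in CD24+Tomato+ cells, by library, with the mean and SD of 3. Each panel holds the CD24negTomato+ table to the left of the line and the CD24+Tomato+ table to the right, and the Tomatoneg libraries are the same in both but scaled separately. For Sdha the 3 CD24+Tomato+ libraries lie at 7098 to 7517, below all Tomatoneg libraries.

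Genes that work beside the respiratory chain were read from lists of their own. In CD24+Tomato+ cells the list of pyruvate entry and the tricarboxylic acid cycle had 8 of 22 genes lower and 0 higher, with a median log2 fold change of -0.74, and 13 lower and 2 higher with the block. Of all tested genes 4.89% were lower and 8.02% higher, or 9.95% and 10.8% with the block. Other settings on all libraries gave 2 to 13 lower, the fewest without the mean-variance trend. With any CD24+Tomato+ library left out 0 genes were lower in each of the 9 lists, apart from 1 of glycolysis without replicate 1, and without 1 Tomatoneg library 3 to 9 of this list were. The share of all tested genes called in those fits is not given here. Cs, the citrate synthase that opens the cycle, was 11805, 10084 and 11880 in CD24+Tomato+ and 29011, 21629 and 24541 in Tomatoneg libraries (log2 fold change -1.15, SE 0.24, adjusted p = 0.023). Other genes called lower included Ogdh (-1.22), Mdh2 (-1.15) and Dlst (-1.12), enzymes of the cycle, and Dlat (-0.93), a subunit of pyruvate dehydrogenase. Pdk4 and Pdk3, kinases that inhibit pyruvate dehydrogenase, were the genes higher with the block (log2 fold changes 2.23 and 0.70).

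Of 9 electron carriers and linked dehydrogenases 2 were lower, and 6 with the block (2 to 6 over all settings that kept every library). Cycs, the cytochrome c that carries electrons from complex III to IV, was 2829, 2745 and 3003 in CD24+Tomato+ and 6080, 5831 and 5440 in Tomatoneg libraries (log2 fold change -1.02, SE 0.18, adjusted p = 0.014). Etfdh, which feeds electrons from fatty acid oxidation into ubiquinone, was 1373, 1292 and 1237 against 3554, 2931 and 2422 (log2 fold change -1.17, SE 0.21, adjusted p = 0.016). Both groups were clear of each other for both genes. Of 30 assembly factors 1 was lower, or 1 to 2 over those settings, which was Sco1, a copper chaperone of complex IV (log2 fold change -1.21, SE 0.21, adjusted p = 0.014).

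The regulators of mitochondrial biogenesis had 1 of 10 lower, or 1 to 3 over the settings that kept every library. This was Esrra, the estrogen-related receptor α that binds promoters of many oxidative phosphorylation genes. It was 3226, 2691 and 2920 in CD24+Tomato+ and 7548, 5332 and 6275 in Tomatoneg libraries, without overlap (log2 fold change -1.10, SE 0.21, adjusted p = 0.018). Its coactivator Ppargc1a and the fatty acid receptor Ppara were lower with the block as well. Genes for copying and transcribing mitochondrial DNA were called for 0 of 18 (1 lower at an unadjusted p under 0.05), and the mitochondrial ribosome for 0 of 78 (8 lower at an unadjusted p under 0.05), with median log2 fold changes of 0.00 and -0.13. Of all 13874 tested genes 1598 were lower at that unadjusted limit. With the block 0 of 18 and 2 of 78 were lower.

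Among 10 membrane proteins Vdac2, an outer membrane channel, was lower (log2 fold change -1.10, adjusted p = 0.031) and Slc25a4, a carrier that exchanges ATP for ADP, was higher at 1002, 896 and 697 against 411, 220 and 204 (log2 fold change 1.69, SE 0.36, adjusted p = 0.024). Of 14 tested glycolysis genes 2 were lower, Pfkp (log2 fold change -1.57, adjusted p = 0.010) and Pgam1 (-1.07, adjusted p = 0.027), and 9 with the block (1 to 9 over the settings that kept every library), whereas Hk2, a hexokinase, was higher (log2 fold change 1.56, adjusted p = 0.023). Neither Slc25a4 nor Hk2 was called with a CD24+Tomato+ library left out, as 0 genes of either list were higher then. Over the settings that kept every library 0 to 1 glycolysis genes were higher. The median of the glycolysis list was -0.96. Sod2, Prdx5 and Gpx4, which remove superoxide, peroxides and lipid peroxides, were lower among 7 genes (log2 fold changes -0.70, -1.17 and -1.24, limma adjusted p of 0.042, 0.039 and 0.039), and the count was 0 to 3 over the settings that kept every library, the fewest without the mean-variance trend.

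In CD24negTomato+ cells 0 genes were called by limma in each of the 9 lists, with medians from -0.41 for the mitochondrial ribosome, where 69 of 78 were negative, to -0.12. At an unadjusted p under 0.05 there were 10 lower in the ribosome list, 0 to 4 lower in each of the others, and 1 higher, in glycolysis. Of all 13420 tested genes 915 were lower and 1377 higher at that limit. With the block 5 of 78 ribosomal genes were lower (Mrpl37, Mrpl38, Mrps18b, Mrps26 and Mrps5), against 2.96% of all tested genes. Once equal library totals were added 20 were lower, but this put the median of all tested genes at -0.12 against 0.08. The share of all tested genes called lower in that fit is not given here. Also lower with the block were Idh2, Polrmt, Myc and Tomm40, and Hk2 was higher (log2 fold change 1.02, adjusted p = 0.040 with the block). Polrmt, the RNA polymerase of mitochondrial DNA, was 591, 611 and 753 in CD24negTomato+ and 1239, 991 and 1610 in Tomatoneg libraries (log2 fold change -0.95, SE 0.27, adjusted p = 0.13, and 0.040 with the block).

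**Figure D5:**
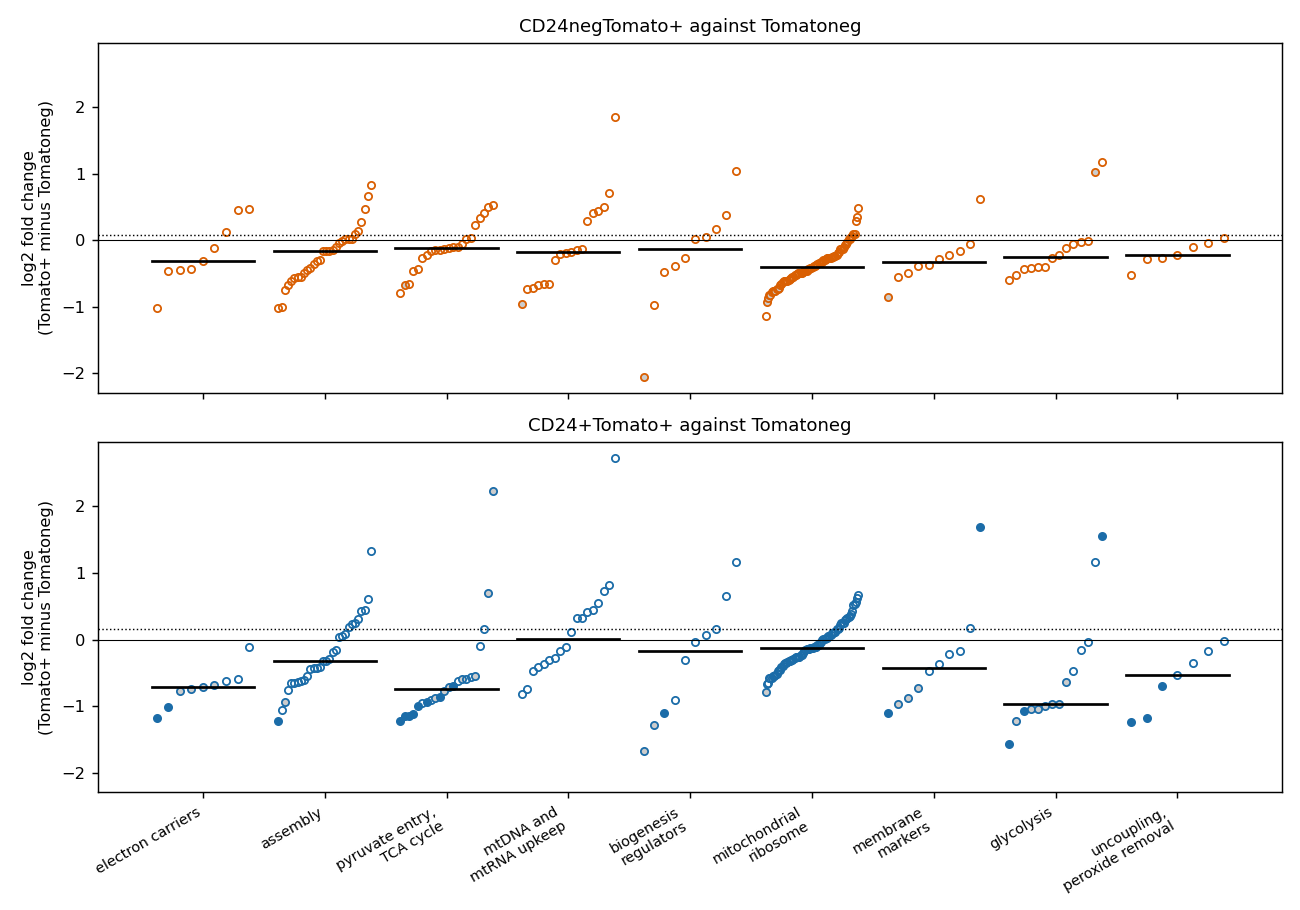
Log2 fold change of each tested gene in 9 lists of related genes, for CD24negTomato+ (upper panel) and CD24+Tomato+ (lower panel) against Tomatoneg. Filled symbols passed an adjusted p of 0.05, grey ones passed it with the replicate block alone, black bars are list medians and the dotted line is the median of all tested genes. In the lower panel the medians of glycolysis and of pyruvate entry with the tricarboxylic acid cycle are -0.96 and -0.74.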

How the data were processed

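The authors sequenced poly-A RNA in 9 libraries of 3 sorted populations and deposited gene counts estimated by kallisto 0.44.0 on GRCm38 and normalized with DESeq2, a signal that is not whole reads. The submitters' processing notes also list bcl2fastq 2.19 and sleuth. Between tables the shared Tomatoneg libraries differ by median ratios of 1.078, 1.024 and 1.050, and 48.4% to 49.2% of genes lie within 1% of them, so a factor that varies by gene entered too, whose source is not given in the sources used here.

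Each table was fitted in limma 3.58.1 (R 4.3.3, lmFit and eBayes with trend, two-sided) on log2(normalized count + 1) where the mean was at least 10. Fold changes are on that scale. P values were adjusted by Benjamini-Hochberg over all tested genes, with a threshold of 0.05. The script was tested on simulated data. The labels number the replicates but do not say whether same-numbered libraries share mice or a sort. Same-numbered libraries deviated together from their group means (correlations of 0.29 to 0.34 for CD24negTomato+ and 0.18 to 0.38 for CD24+Tomato+). Blocked fits are given for many of the calls they change, but not for all.

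Members were placed by GENCODE M21, and 3 by RefSeq GRCm38.p6. Copies of mitochondrial genes were found with blastn 2.17.0 (at least 90% identity over 100 bases), 16 of them in the tables, and their values added to the gene. Members, lists and tests were chosen with earlier results of these data known. Named are all mitochondrial genes, nuclear members and listed genes past the threshold, the largest rise and fall of each complex, and isoform pairs. Those named for the block were added after their values were seen. Some genes that the rule would name are not reported here. Depth was estimated by taking the most frequent low value as 1 read, and 3 reads as the limit of detection, which covers counting error only. Alternatives were other pseudocounts (0.1, 10), filters, scalings, the block, libraries left out and, chosen after seeing the data, copies or pseudogenes summed with other settings, equal library totals with the block, and no trend. Python 3.11.15 and matplotlib 3.10.9 were used.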

Additional observations from a re-analysis of the deposited data

Results flagged for a closer look

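Some values lay above the Tomatoneg libraries in all 3 CD24negTomato+ libraries and below them in all 3 CD24+Tomato+ libraries. The comparisons share their controls, the tables were scaled separately, and the difference between the Tomato+ populations was not tested. The log2 fold changes in CD24negTomato+ and CD24+Tomato+ were 0.74 and -0.70 for mt-Co1, 0.74 and -0.67 for mt-Cytb, 0.91 and -0.66 for mt-Nd2, and 0.81 and -0.44 for mt-Co2 with nuclear copies. Ndufa6, an accessory subunit of complex I, was the only nuclear member of this kind, with 0.20 and -0.43. The mitochondrial share of a library, without copies, averaged 12.5% and 5.31%. Its highest CD24+Tomato+ value was 6.90%, against 6.94% in the lowest Tomatoneg library of that table, and with copies the groups overlapped.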

How the results depend on the processing

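Of 1057 values for single genes under settings that kept all libraries, 987 kept their direction and side of the threshold, 48 lost a call, 10 gained one and 12 changed sign. Many of these genes were not called in the main fit and had no call to lose. Among the called nuclear members, the call was kept in 6 of 12 fits for Ndufb10 and in 12 of 12 for Uqcrc2. Of 175 counts, medians and shares 160 moved by less than the SD between replicates or, for counts, by no more than 1.5 times. For medians this SD was taken over the median differences between libraries of the same number. The cause of the changes was not tested. Shares of all tested genes called are given for the main and blocked fits only. In CD24negTomato+ the replicate block called 1 nuclear member lower against 0, and 13 with equal library totals added. Equal totals put the median of all tested genes at -0.12 against 0.08, and that of nuclear members at -0.41, with or without the block, so that relative to all genes it stayed at -0.29. They also gave -0.019 for Cox7b, -0.16 for Ndufa4, -0.046 for Ndufs1 and -0.13 for Uqcrb, and totals without mitochondrial genes -0.083 for Ndufa4 and -0.057 for Uqcrb. Quantile normalization, which by construction gives equal values to equal ranks, put the mitochondrial median at 0.46 against 0.91, or at 0.51 against 0.83 relative to all genes, and turned mt-Cytb to -0.16, mt-Nd1 to -0.0027 and Cox6b1 to 0.074.

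In CD24+Tomato+ the count of nuclear members called lower, 6, was 32 with the block, 22 with the block and equal totals, 10 with totals without mitochondrial genes, 3 with quantile normalization and 2 without the mean-variance trend. The mitochondrial count, 0, was 2 with the block, with or without copies, and 1 with the block and equal totals. Quantile normalization put the nuclear median at -0.32 and turned Cox8a to 0.044, mt-Atp8 to 0.14 and mt-Nd3 to 0.0054. The mean nuclear share of CD24negTomato+ libraries was 2.12% of totals without mitochondrial genes and copies, and the mitochondrial share of Tomatoneg libraries 8.87% with copies.

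With single libraries left out, CD24negTomato+ against Tomatoneg gave 0 to 3 mitochondrial genes called higher (0 to 2 with copies), mitochondrial medians of 0.71 to 1.09 and nuclear medians of -0.38 to -0.073, the lowest without Tomatoneg replicate 1 and the highest without Tomatoneg replicate 3. Genes whose sign changed ranged from -0.20 to 0.46 for Atp5l, -0.27 to 0.21 for Cox6b1, -0.47 to 0.39 for Cox7a1, -0.26 to 0.12 for Cox7a2, -0.27 to 0.45 for Cox7b, -0.31 to 0.24 for Ndufa4, -0.16 to 0.72 for Ndufaf4, -0.28 to 0.65 for Ndufc1, -0.10 to 0.31 for Ndufs1, -0.44 to 3.56 for Sdhaf4, -0.14 to 0.24 for Uqcrb and -0.24 to 0.0084 for Uqcrfs1. In CD24+Tomato+ 0 to 7 nuclear members were called lower, with medians of -0.62 to -0.29 (without CD24+Tomato+ replicates 3 and 1), mitochondrial medians were -0.85 to -0.43, or -0.77 to -0.35 with copies (highest without CD24+Tomato+ replicate 2), and the ranges were -0.13 to 0.72 for Atp5e, -0.023 to 4.01 for Sdhaf4, -1.31 to 0.23 for mt-Atp6, -0.64 to 0.53 for mt-Atp8, -0.30 to 0.12 for mt-Co3 and -0.67 to 0.42 for mt-Nd3.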
